A study of Mus musculus with 2 samples.

Results

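Abca8a and Abca8b are paralogous genes of the A subfamily of ATP-binding cassette transporters. They were taken by name as 2 of the 140 genes of an imaging panel. They were chosen with measured values in view: their levels against blank barcodes, their overlap, and their levels in cells picked by marker counts. Those values are therefore given as a description, with no test.

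The study imaged sections of duodenum and colon by MERSCOPE, a method that reads each transcript in place as a fluorescent barcode over repeated rounds of imaging. It used 1 male and 1 female C57Bl6 mouse, 6 to 10 weeks old, on standard chow, and the labels name no experimental treatment. Tissue was fixed in paraformaldehyde, frozen and cut at 10 µm, and each animal gave 2 imaged regions, called region 0 and region 1 here. Which of them is duodenum and which colon cannot be read from the labels, and regions of the same number are not matched between animals.

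Subfamily A transporters are large membrane proteins that use ATP to move lipids across or out of a membrane. The mouse carries Abca8a and Abca8b where the human genome has the single gene ABCA8, which is known for roles in cholesterol efflux and in the sphingolipids of myelinating glia, and as a transcript of fibroblasts. In the RefSeq gene table Abca8b and Abca8a lie next to each other on chromosome 11, followed by Abca9, Abca6 and Abca5 of the same subfamily, and none of these 3 neighbours was on the panel.

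The promoter windows are shown because the pair, adjacent in the genome, gave unlike patterns in the images, and they let the start regions be set side by side. Each window runs 5′ to 3′ on the gene's strand from 250 bases before to 50 bases after the annotated start, from RefSeq on GRCm38.p6, and both genes are on the minus strand. Capitals mark GGTCACGTG, 1 of the 2 longest runs of bases that both windows hold on the same strand (9 bases each).
Abca8b, chr11:109995796-109996095: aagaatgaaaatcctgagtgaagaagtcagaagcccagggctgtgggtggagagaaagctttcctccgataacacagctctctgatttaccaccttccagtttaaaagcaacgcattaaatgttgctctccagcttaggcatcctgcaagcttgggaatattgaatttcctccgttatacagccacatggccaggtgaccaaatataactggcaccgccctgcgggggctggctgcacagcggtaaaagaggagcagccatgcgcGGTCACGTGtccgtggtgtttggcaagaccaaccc
Abca8a, chr11:110095888-110096187: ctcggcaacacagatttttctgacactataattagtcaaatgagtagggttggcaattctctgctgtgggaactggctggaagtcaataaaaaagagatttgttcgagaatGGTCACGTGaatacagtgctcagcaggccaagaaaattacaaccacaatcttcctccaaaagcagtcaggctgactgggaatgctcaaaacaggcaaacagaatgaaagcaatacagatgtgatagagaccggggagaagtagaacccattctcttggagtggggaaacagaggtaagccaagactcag
The run starts 15 bases after the annotated start of Abca8b and 139 bases before that of Abca8a, and so lies at different places in the windows. It was picked after the sequences were seen. Of 32851 RefSeq windows of 300 bases, 1.11% hold this run on either strand and 7.15% hold its inner part CACGTG, which reads the same on both strands. The Abca8b window has 51.3% G and C and 10 CpG sites, and the Abca8a window 44.3% and 4 sites, against medians of 52.7% and 7 over all windows. These are descriptions of the letters, and no binding was measured.

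The 4 tables held 31893 segmented cells and very few counts per cell. Panel counts per region came to 3048 in 7775 cells (male region 0), 582 in 4068 cells (male region 1), 4288 in 6343 cells (female region 0) and 45942 in 13707 cells (female region 1). Female region 1 thus held most of the counts, and the median cell of the other regions held none. Levels are given as counts per 10000 panel counts of the region. Fewer cells with a transcript and fewer transcripts per cell cannot be told apart in such sums. Intervals are exact 95% intervals that cover counting error only, and cells of 1 animal are not replicates. Blank barcodes, 40 per table, match no gene and show the level of false reads. No source used here gives the probe sets for the paralogues, nor is it known how far their probes tell these related transcripts apart. Levels of one gene are therefore not compared with those of the other, and shares within the pair are shares of reads only.

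Abca8b was read in all regions more often than any blank barcode. It had 200 counts in male region 0, 21 in male region 1, 99 in female region 0 and 104 in female region 1. The highest blank of the same region had 9, 2, 33 and 46 counts. The gene therefore stood 22.2-fold, 10.5-fold, 3.00-fold and 2.26-fold above the highest blank, in the same order, and none of the 40 blanks reached it in any region. Female region 1 had the smallest margin.

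In levels, Abca8b stood at 656 per 10000 (568 to 754) in male region 0, and male region 1 had 361 (223 to 552). Female region 0 had 231 (188 to 281) and female region 1 had 22.6 (18.5 to 27.4). Of these intervals only those of male region 1 and female region 0 overlap. By counts Abca8b was number 3 of the panel genes in male region 0, number 7 in male region 1, number 9 in female region 0 and number 59 in female region 1. With the counts of an animal's regions pooled, the level was 609 in the male and 40.4 in the female. The mean of these pooled levels over the animals was 325 ± 402 (SD, n = 2).

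Counted per cell, the order of the regions changed. Abca8b gave 25.7 counts per 1000 cells in male region 0, 15.6 in female region 0, 7.59 in female region 1 and 5.16 in male region 1. The ratio of female region 0 to female region 1 was 2.06 per cell (1.55 to 2.74), and that of male region 0 to male region 1 was 4.98 (3.17 to 8.23). The order thus depends on whether cells or panel counts are the base.

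Abca8a was scarcely read outside female region 1. It had 2 counts in each male region, 8 in female region 0 and 86 in female region 1. In male region 0, 8 of the 40 blanks reached or passed it, in male region 1 it equalled the highest blank, and in female region 0, 4 blanks reached or passed it. Female region 1 was the only region where it passed every blank, at 1.87 times the highest. Its presence in the other 3 regions was not detectable at this depth.

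Per 10000 panel counts Abca8a stood at 6.56 (0.795 to 23.7) and 34.4 (4.16 to 124) in male regions 0 and 1, and at 18.7 (8.05 to 36.8) and 18.7 (15.0 to 23.1) in female regions 0 and 1. All 4 intervals overlap. The higher count in female region 1 went with its larger number of panel counts: the ratio to female region 0 was 1.00 (0.487 to 2.40) per 10000 and 4.97 (2.41 to 11.9) per cell. However, the level in female region 0 lay within those of the blanks. The mean blank stood at 8.69 per 10000 there and at 3.10 in female region 1. With the mean blank subtracted, the ratio per 10000 was 1.57. The levels pooled over an animal's regions were 11 (male) and 18.7 (female), with a mean of 14.9 ± 5.44 (SD, n = 2).

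Within the pair, Abca8b made up 99.0% of the counts in male region 0, with an interval of 96.5 to 99.9%. Male region 1 had 91.3% (72.0 to 98.9%), female region 0 had 92.5% (85.8 to 96.7%), and female region 1 had 54.7% (47.4 to 62.0%). These are shares of reads and do not allow for unlike probe sets. In the other 3 regions Abca8a did not pass the highest blank, so the share there sets Abca8b against a count at the level of false reads. The lower share in female region 1 went with a lower Abca8b level, and its cause was not tested.

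**Figure D1:**
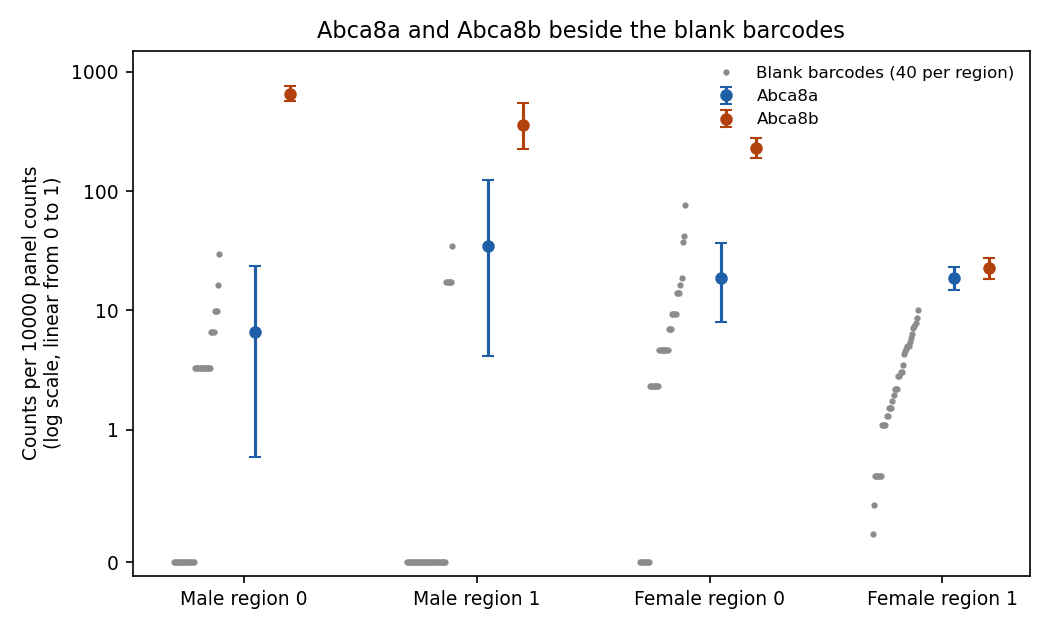
Counts per 10000 panel counts (log scale, linear from 0 to 1) of Abca8a (blue), Abca8b (orange) and each of the 40 blank barcodes (grey) in the 4 regions, with exact 95% intervals for counting error. Abca8b lies above every blank in all 4 regions, and Abca8a does so only in female region 1.

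Cells with several Abca8b transcripts were found mainly in male region 0 and female region 0. In male region 0 its 200 counts lay in 105 cells (1.35% of cells), of which 67 held 1 count and 38 held at least 2, and the fullest cell held 18. Of the cells with Abca8b, 14 of 17 held a single count in male region 1, 54 of 72 in female region 0 and 96 of 100 in female region 1, and the fullest held 3, 5 and 2. For Abca8a, 82 of its 84 cells in female region 1 held 1 count and the others 2. In the other regions it had too few counts for such a comparison.

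What else the fullest Abca8b cells held differed by region. The cell with 18 Abca8b counts in male region 0 had 116 panel counts, among them Prickle2 (18 counts, a planar cell polarity gene), Pfn2 (15) and Col12a1 (9, collagen XII). In female region 0 the fullest cell had 5 counts of Abca8b beside 23 of Col12a1 and 8 of Dlgap1, a scaffold protein of the postsynaptic density. The 4 cells of female region 1 with 2 Abca8b counts were led by Aqp8 or Slc26a3, the water channel and the chloride-bicarbonate exchanger of absorptive enterocytes, and in 1 of them Col12a1 had as many counts (5) as Aqp8. These cells were chosen by their Abca8b counts and are examples only.

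Cells with Abca8b were also fuller in general. Their median number of other panel counts was 3, 1, 6 and 14.5 in the 4 regions in the order above, against 0, 0, 0 and 1 in cells without it. Blank barcodes made up 1.40%, 1.15%, 2.44% and 1.54% of the counts in cells with Abca8b and 1.53%, 1.25%, 3.75% and 1.21% in cells without it. Fullness moved with the gene, the share of false reads much less, and the part of fullness in the results was not tested. Levels below are therefore set against the cells' other counts.

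The paralogues were almost never found in the same cell. Of the cells with either gene, 1 of 106 held both in male region 0, 0 of 19 in male region 1, 1 of 79 in female region 0 and 1 of 183 in female region 1. The number expected if each gene followed only the cells' other counts was 0.407 in male region 0, 1.22 in female region 0 and 3.03 in female region 1. For female region 1 the observed number was 0.330 times the expected (0.00835 to 1.84). With so few counts, neither avoidance nor sharing of cells was detectable at this depth. Cells with both were led by Fgfr1 (7 counts) in male region 0, Col12a1 (2) in female region 0 and Plce1 (2) in female region 1.

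Marker counts defined 4 classes of cells: at least 3 counts of Fn1, Vim and Pdgfra together (fibronectin, vimentin and a growth factor receptor of fibroblasts, called stromal-marker cells), at least 2 of Des (desmin of muscle), at least 3 of Aqp8 and Slc26a3 together (absorptive-marker cells) and at least 2 of Snap25 (a SNARE protein of synaptic vesicle fusion). Class levels leave the class's own markers and the pair out of the base. These 7 marker genes served to choose the pair, and a class is a count threshold, not a cell type. Both male regions had only Snap25 cells. Female region 0 had in addition a single absorptive-marker cell, and Snap25 cells were down to 3 in female region 1.

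In the 3 regions with Snap25 cells in number, Abca8b was higher in them than in cells of no class. Male region 0 had 69 counts of Abca8b in 20 of 29 Snap25 cells, or 1280 per 10000 (996 to 1620), and 635 (531 to 754) in the 7746 cells of no class. The 10 Snap25 cells of male region 1 had 6 counts, or 1304 (479 to 2839), and the cells of no class 346 (194 to 571). For female region 0 the 77 Snap25 cells had 49 counts in 31 cells, or 452 (334 to 597), and cells of no class 195 (145 to 258). The ratio of class to no class was 2.02 (1.48 to 2.72), 3.77 (1.2 to 10.3) and 2.31 (1.53 to 3.50) in these regions. In male region 1 the lower bound stayed above 1 under 3 of 9 alternative settings, and without the fullest cell of each class the ratio was 2.36.

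All blanks together stood at 130 per 10000 in the Snap25 cells of male region 0 and 175 in its cells of no class, and at 396 and 414 in female region 0. A single barcode departed from this: in the Snap25 cells of female region 0 the highest blank had 25 of its region's 33 counts, or 230 per 10000, against 50.8 for the highest blank in cells of no class. Abca8b stayed above every blank there, and the part of this blank in the result was not tested. Abca8a had no count in any Snap25 cell: a limit of 3 counts for a count of 0 allows up to 55.7 per 10000 in male region 0, 652 in male region 1 and 27.6 in female region 0.

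Female region 1, where the other classes were found, gave opposite orders for the paralogues. Abca8b had 58 counts in 54 of 650 absorptive-marker cells, or 59.4 per 10000 (45.1 to 76.7), and 11 counts in 584 stromal-marker cells, or 25.5 (12.7 to 45.7). Abca8a had 3 counts in the absorptive-marker cells, or 3.07 (0.633 to 8.97), and 25 counts in 24 stromal-marker cells, or 58.0 (37.6 to 85.7). The absorptive-marker cells thus held 55.8% of the Abca8b counts and 3.49% of the Abca8a counts of the region, beside 33.8% of all its panel counts.

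The Des cells gave 25.9 per 10000 for Abca8b (5 counts, 8.39 to 60.3) and 10.3 for Abca8a (2 counts, 1.25 to 37.4), and neither passed the highest blank in those 264 cells (8 counts). The 12278 cells of no class held 65.1% of the Abca8a counts, at 31.7 per 10000 (24.0 to 41.2), and 33.7% of the Abca8b counts, at 19.8 (13.8 to 27.6). Most Abca8a transcripts therefore lay outside every class. In order, Abca8a was highest in stromal-marker cells, then in cells of no class, Des cells and absorptive-marker cells, and each neighbour in this order has an overlapping interval.

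**Figure D2:**
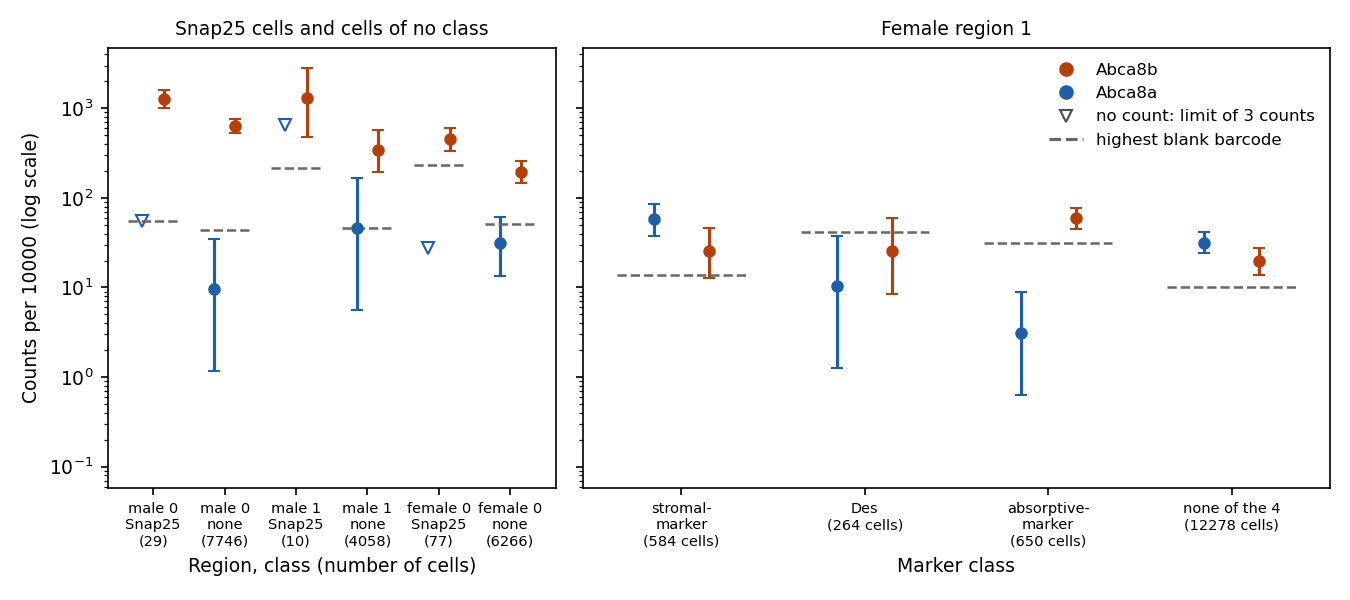
Counts per 10000 (log scale) of Abca8a (blue) and Abca8b (orange) in marker classes, with exact 95% intervals for counting error; dashed lines give the highest blank barcode of the same cells and open triangles the limit that a count of 0 allows. The left side shows Snap25 cells and cells of no class in 3 regions, where Abca8b is higher in the Snap25 cells, and the right side shows female region 1 without its 3 Snap25 cells, where of the classes drawn Abca8b is highest in absorptive-marker cells and Abca8a in stromal-marker cells.

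The stromal-marker over absorptive-marker ratio of Abca8a was 18.9 (5.77 to 97.8), and the absorptive-marker over stromal-marker ratio of Abca8b was 2.32 (1.21 to 4.91). All blanks together had an absorptive-marker over stromal-marker ratio of 1.68 (1.24 to 2.32), and the 13 blanks with at least 20 counts had a median of 1.63. The Abca8b interval includes those values, its lower bound stayed above 1 under 6 of 9 alternative settings, and its excess in absorptive-marker cells over that of false reads was not detectable at this depth. The highest blank in the absorptive-marker cells had 31 counts against 58 of Abca8b. Thinning to 10 counts was possible for the 542 absorptive-marker and 305 stromal-marker cells with at least 10 panel counts. Thinned, these gave Abca8b in 3.73% and 1.96% of cells and Abca8a in 0.252% and 3.36%. Over all cells of the classes, unthinned, the shares were 8.31% and 1.88% for Abca8b and 0.462% and 4.11% for Abca8a. The 2 sets of shares thus differ in their cells as well as in depth.

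Ranked among the 86 panel genes with at least 50 counts in female region 1, leaving out the 5 markers of these classes but not Des and Snap25, Abca8b was number 13 from the absorptive side and Abca8a number 79. With the same 5 markers left out of the base and 12 cells of both classes set aside, their absorptive-marker over stromal-marker ratios were 2.54 (1.25 to 5.85) and 0.0490 (0.00948 to 0.161), around a median gene at 0.469. The absorptive end was led by Prdx6 (9.21), a peroxiredoxin that also acts on phospholipids, by Ezr (8.56), the ezrin of microvilli, and by Shroom3 (6.25). On either side of Abca8b were Gucy2c (2.67), the guanylin receptor of enterocytes, and Aldh1b1 (2.47), an aldehyde dehydrogenase. On either side of Abca8a were Ano6 (0.0511), a calcium-activated lipid scramblase, and Nrp2 (0.0425), a semaphorin receptor.

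**Figure D3:**
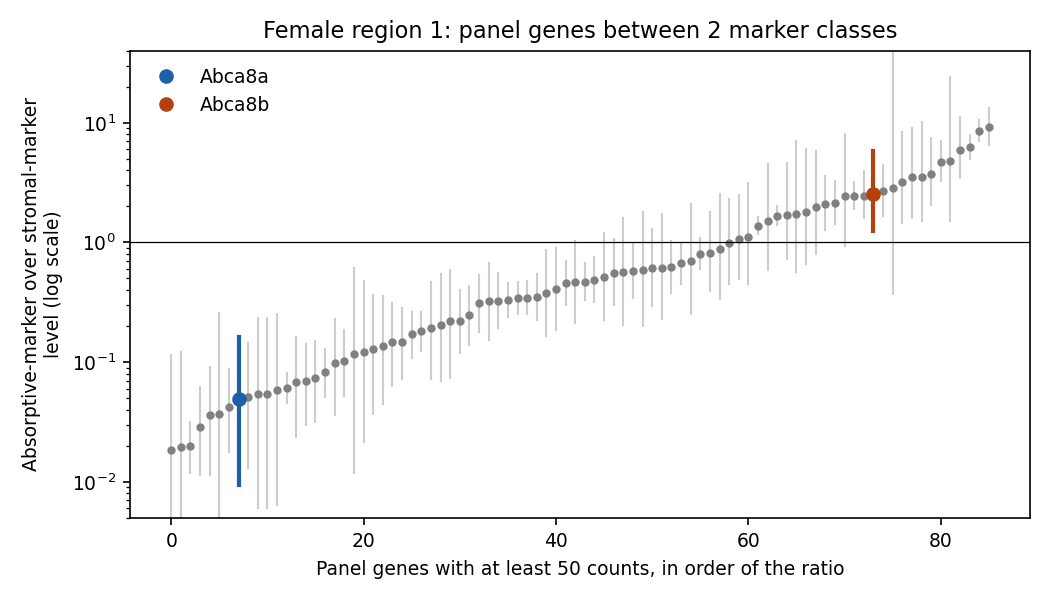
Ratio of the level in absorptive-marker cells to that in stromal-marker cells (log scale) for 86 panel genes in female region 1, in order of the ratio, with exact 95% intervals. Abca8b (orange) lies among the genes higher in absorptive-marker cells at 2.54, and Abca8a (blue) among those lowest there at 0.0490.

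Genes most like each paralogue were sought by co-detection, the number of cells with both genes over the number that the cells' other counts predict. In male region 0, where the median gene had a ratio of 1.59 with Abca8b, the 5 genes with the highest lower bounds were Col12a1, Prickle2, Ptprz1, Snap25 and Dlgap1. Col12a1 was found in 45 cells with Abca8b, 2.03 times the expected (1.48 to 2.72). In female region 0, with a median gene at 2.12, the 5 were Col12a1, Snap25, Dlgap1, Tgfbr3 and Prickle2, and Col12a1 was found in 43 cells, 2.53 times the expected (1.83 to 3.40). These lists share 4 genes, but only 7 genes in male region 0 and 12 in female region 0 could be ranked, so a large overlap was nearly forced, and Snap25 was used to choose the pair.

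Beside Abca8b in female region 1 the 5 highest lower bounds were those of Prdx6, Aqp8, Slc26a3, Clec2h and Adipor2. Prdx6 was found in 46 of the 100 Abca8b cells, 2.01 times the expected (1.47 to 2.68). Aqp8 (1.83) and Slc26a3 (1.62), which the rule used, Clec2h (1.94) and Adipor2 (1.92), an adiponectin receptor, followed, around a median gene at 0.868. Snap25, with 79 counts in the region, also had a lower bound above 1, at 2.57 (1.03 to 5.29) in 7 cells. Beside Abca8a the highest was Slit3, a secreted guidance protein, in 15 cells at 2.09 (1.17 to 3.45). Vim (1.43), Col12a1 (1.23), Matn2 (1.56) and Fn1 (0.885) came next by their lower bounds, all of which were below 1.

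In cells with at least 10 other counts the ratios were lower beside Abca8b. Of the named genes only Prdx6 (1.49, 1.08 to 2.00) and Aqp8 (1.36, 1.02 to 1.79) then kept a lower bound above 1, and Col12a1 stood at 1.35 (0.838 to 2.07) in male region 0 and 1.29 (0.837 to 1.91) in female region 0. The 10 values of male region 0 and female region 0 all had lower bounds below 1 in those cells. This was partly fixed in advance, since only 28 Abca8b cells were left in each of these regions. For Snap25 in both, and for Col12a1 and Dlgap1 in female region 0, the bound would stay below 1 even with the gene in all 28. No gene of male region 1 reached 50 counts and 5 shared cells.

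**Figure D4:**
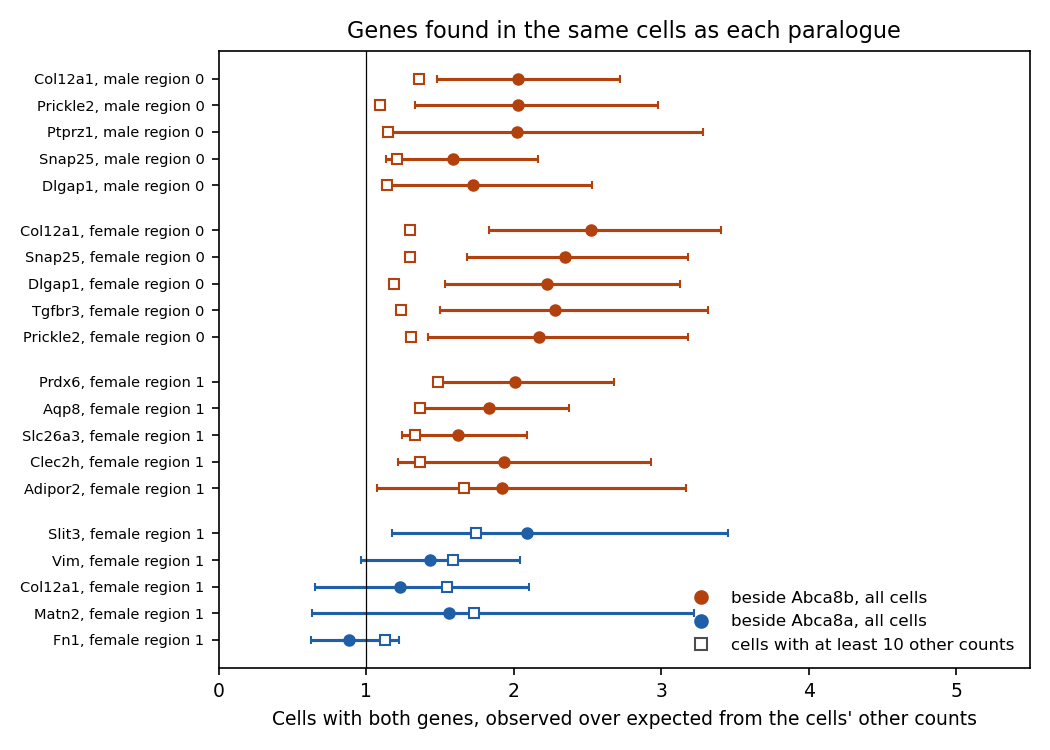
Observed over expected number of cells that hold a named gene together with Abca8b (orange) or Abca8a (blue), with exact 95% intervals over all cells with other counts; open squares give the ratio in cells with at least 10 other counts, without intervals. Beside Abca8b the squares lie closer to 1 than the filled points in every region shown.

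Gene lists were read as shares of the cells' other counts. The 18 synaptic and neural adhesion genes on the panel made up 54.0% of the other counts in Abca8b cells and 22.8% in the rest in male region 0, 43.0% and 20.3% in male region 1, and 59.1% and 25.9% in female region 0. In female region 1 the shares were 2.53% and 2.93%. Snap25, a member of this list, served to choose the pair. It alone took 11.2% in Abca8b cells of male region 0 (5.33% elsewhere) and 21.1% in female region 0 (8.53% elsewhere). Not all members went this way. In male region 0 the co-detection ratio with Abca8b was 0.157 (0.0190 to 0.568) for Mapk10 and 0.176 (0.00445 to 0.979) for Grik2. Col12a1 alone took 11.6% of the other counts of Abca8b cells in male region 0 (3.57% elsewhere) and 18.3% in female region 0 (6.43% elsewhere). Fgfr1, a fibroblast growth factor receptor, went the other way in male region 0, with 5.02% in Abca8b cells and 32% in the rest.

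In female region 1 the absorptive list (Aqp8, Slc26a3 and Ezr) made up 44.7% of the other counts in Abca8b cells and 22.2% in the rest, and 6.80% in Abca8a cells against 23.6%. The fibroblast list (Pdgfra, Fn1, Vim and Slit3) ran opposite as a sum, with 4.77% against 13.5% for Abca8b and 30.2% against 12.8% for Abca8a. Not all its members went this way beside Abca8a. Pdgfra was found in 6 cells with Abca8a, 0.430 times the expected (0.158 to 0.936), where the median gene stood at 0.543. All genes of both lists but Ezr and Slit3 served to choose the pair, so the shares restate that choice in part. Slit3, which the rule did not use, took 4.07% in Abca8a cells and 0.62% in the rest. The 3 genes of the lipid transport and sterol list on the panel were Abcc2 (an organic anion exporter of the same ATP-binding cassette family), Ppara (a nuclear receptor that governs fatty acid oxidation) and Prdx6. In female region 1 they took 5.45% of the other counts of Abca8b cells against 2.54% in the rest, and 0.604% of those of Abca8a cells against 2.72%, nearly all of it Prdx6. The matrix and growth factor receptor list took 6.13% against 14% beside Abca8b there and 29.5% against 13.4% beside Abca8a, while beside Abca8b it took 20.0% against 39.5% in male region 0, 36% against 27.5% in male region 1 and 25.3% against 15.4% in female region 0.

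Other cell type lists beside Abca8b differed by region. The 6 enteric neuron genes took 11.5% against 6.58% in male region 0 and 12.8% against 8.88% in male region 1. The shares were 21.2% against 9.02% in female region 0 and 0.760% against 0.567% in female region 1. Outside female region 1 nearly all list counts of Abca8b cells were of Snap25, which served to choose the pair. Male region 0 had 103 Snap25 counts among 105, male region 1 had 10 among 11, and female region 0 had 211 among 212. Without Snap25 the list's share was lower beside Abca8b than elsewhere for male region 0 and female region 0. Over all cells of female region 1, Snap25 gave 79 of 264 list counts. Muc6, a gland mucin and the only goblet and gland marker on the panel, made up 19.1% of the other counts in cells without Abca8b in female region 0 and 0.20% in cells with it. The crypt genes Cftr and Kcnn4 took 0.211% against 1.24% beside Abca8b in female region 1 and 1.21% against 1.19% beside Abca8a. Smooth muscle genes took 7.55% in Abca8a cells against 7.41%, and 3.25% in Abca8b cells against 7.65%.

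Glial markers gave few counts beside either gene. The 5 glial markers on the panel, among them Sox10 and S100b, together made up 3.50% of the other counts in Abca8b cells of male region 0 (32 counts in 15 of 105 cells) and 1.5% in the rest, and 2.00% and 1.60% in female region 0. Female region 1 had 0.422% and 0.50%, and male region 1 had 0% and 2.33%. Beside Abca8a in male region 0 they were 3 of 38 other counts, all in 1 cell. In the 84 Abca8a cells of female region 1 all 5 were at 0 of 662 other counts, which allows a share of up to 0.453%.

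**Figure D5:**
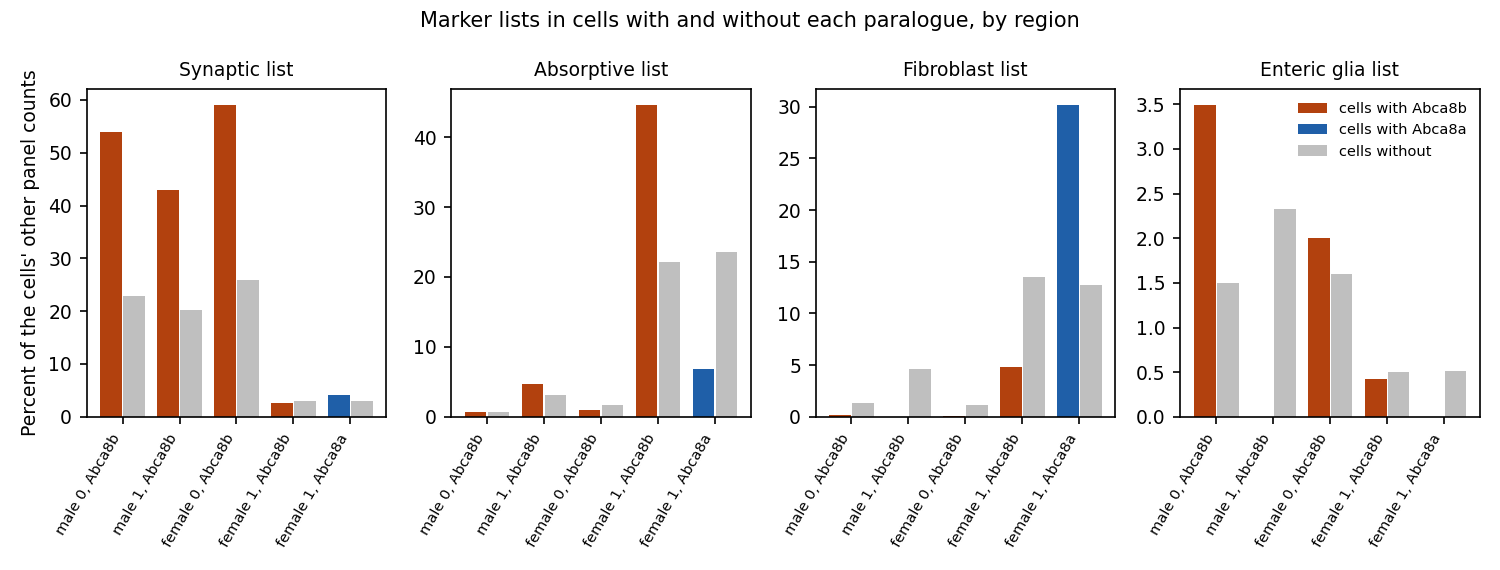
Percent of the cells' other panel counts taken by 4 gene lists in cells with Abca8b (orange) or Abca8a (blue) and in cells without it (grey), by region; bars carry no replicate error, since each is 1 region. The synaptic list, which includes Snap25 of the rule, is as a sum higher in Abca8b cells in 3 regions. In female region 1, again as sums, the absorptive list is higher with Abca8b and the fibroblast list with Abca8a.

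A test over both animals was possible for other panel genes, in cells with at least 10 other counts. The 7 marker genes that served to choose the pair, Snap25 among them, stayed in both fits. Their values there are a description and not a test. Counts were summed per animal for cells with and without the gene and fitted with edgeR, with the animal as a block. For Abca8b the sums covered 31 cells with it and 23 without in the male, and 93 and 1233 in the female. None of 63 genes tested passed an adjusted p of 0.05 (0% called), 9 had an unadjusted p below 0.05, and DESeq2 called none, with 1 gene below 0.05 unadjusted. The lowest adjusted p by edgeR was 0.220.

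The highest fold changes among genes with at least 100 counts that differed the same way in both animals were those of Pclo (log2 3.67, SE 1.03), Tgfbr3 (3.17, SE 1.09), Col12a1 (3.11, SE 0.94), Snap25 (2.93, SE 0.93) and Dlgap1 (2.42, SE 1.01), with edgeR adjusted p of 0.220 for the first 4 and 0.280 for Dlgap1. Pclo, the piccolo scaffold of presynaptic terminals, had 193 counts per 10000 in male cells with Abca8b and 0 in the others, and 181 and 23 in the female. Col12a1 had 927 and 59.0 in the male, and 490 and 88.7 in the female. The lowest were Kcnn4 (-3.95, a calcium-activated potassium channel), Stard13 (-3.53), Clec2h (-2.35), Fgfr1 (-1.79) and Cracr2a (-1.62), none of which passed. In male cells with and without Abca8b, Kcnn4 had 0 and 1 counts and Cracr2a 0 and 2, so their male direction rests on almost no counts. Clec2h, named above among the genes most like Abca8b in female region 1, had 0 and 29 counts in the male. In the female it had 85.5 and 105 per 10000. The female sums mix regions unequally, with 28 of 93 cells with Abca8b but 46 of 1233 others from female region 0, and with sums per region and the region as a block the changes were smaller. Pclo then stood at 1.30 (SE 1.22), Tgfbr3 at 1.46 (SE 1.17), Col12a1 at 1.43 (SE 0.96), Snap25 at 1.40 (SE 0.83) and Dlgap1 at 1.34 (SE 0.83), each with an edgeR adjusted p of 0.8855.

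For Abca8a the sums covered 1 cell with it and 53 without in the male, and 28 and 1298 in the female. Again none of 63 genes passed by edgeR (0% called), with 8 below an unadjusted p of 0.05, and DESeq2 called none, with 2 below 0.05. The single male cell held 38 counts, too few to give most genes a direction, so the values below rest on the female. Pfn1 (log2 0.67, SE 1.07) and Prickle2 (0.39, SE 0.85) were the only genes with at least 100 counts that were higher in both animals. Clec2h, with 29 counts in the male and 278 in the female cells without Abca8a, and Pclo, with 15 and 110, had 0 counts in the cells with it in both animals. Snap25 (-2.98) and Prdx6 (-2.35) did not pass either. Slit3 had 333 counts per 10000 in female cells with Abca8a (15 counts) and 34.7 in the others (92 counts). Its change was log2 3.16 (SE 1.00, edgeR adjusted p = 0.147), and it was at 0 in the single male cell. In female region 1, only 4 cells with at least 10 other counts held both genes, 1.75 times the expected (0.476 to 4.47).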

How the data were processed

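The authors deposited 1 table of counts per imaged region, 2 regions for each of 1 male (replicate 1) and 1 female mouse (replicate 2). Each value is the number of transcripts of 1 of 140 genes or 40 blank barcodes in 1 segmented cell, per the file headers. Seurat was used, per the submitters' processing notes. For decoding and segmentation, settings were not given in the sources used here. The tables share 0 cell names, no column belonged to another series, and all 140 symbols matched the RefSeq gene table.

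All cells were kept, and doublets or mixing by the segmentation were not corrected. Counts were summed per region and divided by the panel counts or by cells. Intervals are exact (95%, Poisson for levels, binomial for shares and ratios) and assume independent transcripts. Co-detection compares the cells with both genes with a chance of detection that rises with a cell's other counts and is set to give each gene's own number of cells. Cells with no other count are left out. A gene was called by edgeR 4.0.16 (quasi-likelihood, animal as a block, 50 counts over the sums, Benjamini-Hochberg adjusted p under 0.05), with DESeq2 1.42.0 as an alternative in R 4.3.3. Other steps used Python 3, scipy and pandas. The animal pairs its own sums with each other by design. Both procedures were run on simulated data, with outcomes not given here. For co-detection the simulated cells had the depths of female region 1 only, so the sparser regions were not covered.

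The members, lists and tests were chosen with earlier results of these data known. Named genes are the 5 with the highest lower bound of co-detection per region where the paralogue passed every blank (at least 50 counts, 5 cells), and, where no gene passed the fit, the 5 highest and 5 lowest with at least 100 counts that differed the same way in both animals. Genes of the rule and of the lists are named beside them, and Pfn2, Plce1, Slit3 in the fit and genes at the ends of the ratio order were named after their values were seen. Of 16 lists, 6 cell type lists (interstitial cells of Cajal, enteroendocrine, endothelium, pericytes, immune, mesothelium) had 0 genes on the panel. Some genes that the rule would name are not reported here.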

Additional observations from a re-analysis of the deposited data

How the results depend on the processing

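Of 96 alternatives over 23 results, 75 stayed within the main value's interval or SD, or within 1.5 times a count, 21 moved and 0 changed direction. Part of this tally was fixed in advance. With n = 2, a mean that leaves out 1 animal always stays within the SD, whatever the values. A change of direction could be recorded only for ratios whose main interval excludes 1. Where a value moved, the cause was not tested unless stated. Counting per cell moved the Abca8b ratio to 4.98 (male region 0 over 1) and 2.06 (female region 0 over 1), the Abca8a ratio of female region 1 over 0 to 4.97, and the Snap25 cells over cells of no class to 141, 162 and 79.7 in male region 0, male region 1 and female region 0, where fuller cells weigh more by construction. In cells with at least 10 other counts the first ratio was 1.03, the overlap of the pair was 0 of the expected number in female regions 0 and 1, and genes with a co-detection bound above 1 numbered 0 (male region 0), 0 (female region 0) and 2 (female region 1) beside Abca8b and 0 beside Abca8a, from 5, 8, 8 and 1. For some genes of male region 0 and female region 0 such a bound was out of reach with the 28 Abca8b cells left in each. A minimum of 20 counts gave 2 genes with a bound above 1 in male region 1. With the mean blank plus 3 SD as the bar, Abca8a passed in 2 regions.

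In the Abca8b fit, 3 genes were called with no count filter and 1 with sums per region. In the Abca8a fit, 19 were called with TMM factors (all lower, with the median of all genes at -1.98), 1 with no count filter, 1 with cells of at least 5 counts and 3 with sums per region. Slit3 was higher with sums per region (edgeR adjusted p = 6.29e-08). That fit had 27 cells with Abca8a in female region 1, 1 each in male region 0 and female region 0, and 0 in male region 1. Its values thus rest almost wholly on cells of 1 region, which are not replicates. Regions of 1 animal are not independent, so p-values over regions are too small. Without the replicate block, which pairs the sums of each animal, 0 genes were called for either paralogue. Leaving out 1 animal moved the Abca8b mean between 40.4 and 609, the Abca8a mean between 11 and 18.7, and Abca8b in Snap25 cells (853 ± 607, SD, n = 2) between 424 and 1282. The stromal-marker over absorptive-marker ratio of Abca8a ran from 9.28 to 26.7, and the Abca8b ratio of absorptive-marker over stromal-marker from 1.82 to 4.74.

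Not run were the fits without 1 animal, which leave no residual degrees of freedom, the overlap at 2 counts of each gene, which no cell reached, and the Abca8a fit for cells with at least 2 counts, which no male cell reached. The alternatives for the marker classes that were chosen after seeing the data were a base without all 7 markers, cells with at least 10 other counts, and leaving out the fullest cell. Few counts in 3 regions and 1 animal per sex limit every comparison.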

Other observations

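In female region 0 the 8 cells with Abca8a held 40 other counts, of which 25 were of Muc6, the gland mucin, in 2 cells. The 2 Abca8a cells of male region 1 held no other panel count. Among genes with 20 to 50 counts in female region 1, Grip1 and Dlgap1, scaffold proteins of synapses, were found in 8 and 6 cells with Abca8b, 5.18 (2.23 to 10.2) and 5.95 (2.18 to 13) times the expected number. These were named after their values were seen. The same region had 3 cells with at least 2 counts of Snap25, and 1 of them held 2 counts of Abca8b.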
